A study of Homo sapiens with 6 samples.

Results

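The integrated stress response and the unfolded protein response were examined through 37 genes chosen by symbol, out of the 15953 genes measured. The choice drew on knowledge of these pathways and was made with earlier results of these data known. All 37 were found in the tables, and each averaged at least 1 log2 CPM. RNA-seq had been performed on the bladder cancer cell line EJ, an established human line, after stable lentiviral knockdown of STIL (shSTIL, 3 libraries) or with a negative control hairpin (shNC, 3 libraries). STIL is a protein of centriole duplication that the study examined for its part in the loss of primary cilia. The sample labels and the methods name the groups as hairpins, whereas the headings of the deposited tables name them siNC and siSTIL, and the groups follow the labels here. The sources list siRNA sequences against STIL but do not state which sequence the hairpin carries or how many hairpins or clones were used, and the comparison stands for 1 cell line. Whether the replicates were separate cultures is not stated either, so the P-values measure only the spread between these libraries. The libraries held 16352707, 16431243 and 16214772 reads in shNC replicates 1, 2 and 3, and 16901634, 16879587 and 16734469 reads in shSTIL replicates 1, 2 and 3.

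Both responses protect cells whose protein synthesis or folding is disturbed. Kinases that sense amino acid shortage, unfolded proteins in the endoplasmic reticulum (ER) or other stress phosphorylate the translation factor eIF2α, which lowers protein synthesis but allows translation of ATF4, a transcription factor for genes of amino acid synthesis and uptake. In the ER, IRE1α (encoded by ERN1) splices the XBP1 mRNA and ATF6 is released by cleavage, and both factors switch on chaperones and the genes that remove misfolded proteins (ER-associated degradation). Splicing, cleavage, phosphorylation and translation are not measured by gene-level RNA values. The genes were read here as an ATF4 arm of 20 genes, an ATF6 and XBP1 arm of 12 genes, and 5 sensors and eIF2α regulators that belong to neither arm, although DDIT3, HERPUD1, CEBPB and XBP1 can be targets of more than 1 branch.

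STIL itself measured 5.98, 6.10 and 6.01 log2 CPM (reads scaled to an adjusted library size, as log2) in the shNC libraries and 4.05, 4.06 and 4.01 in the shSTIL libraries. Every shSTIL library was below every shNC library, and the log2 fold change was -1.99 (SE 0.05, limma adjusted p = 6.1e-12), which left 25.2% of the control level. The exact permutation test (two-sided, 20 possible labellings) gave p = 0.10 for STIL, as for each gene below whose groups did not overlap, and no smaller p can be reached with 3 libraries a group. In GENCODE 29 (GRCh38) STIL lies at chr1:47250139-47314147 on the minus strand. Of the genes that the results turn on most, ATF4 lies at chr22:39519695-39522685 (plus strand), ASNS at chr7:97852118-97872542 (minus), XBP1 at chr22:28794555-28800597 (minus), CALR at chr19:12938578-12944489 (plus) and ERN1 at chr17:64039142-64130819 (minus).

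The epithelial keratins KRT7, KRT8 and KRT18 were present in all libraries, with at least 1345, 3806 and 10049 reads each. Several other defining markers were near the floor, since CDH1 had at most 3 reads in a library, EPCAM at most 21, the basal KRT5 at most 1, and the luminal KRT20 and UPK2 at most 1 and 5. Of the same lists, the basal CD44 had 16390 to 16838 reads in a library and the luminal PPARG 302 to 405. Of the luminal markers PPARG rose by 0.26 and UPK1B, with 5 to 20 reads, fell by 1.12 (limma adjusted p = 0.0046 and 0.0035), and the others measured did not pass the threshold. The mesenchymal genes VIM, CDH2, ZEB1 and FN1, all 4 measured, summed to 1573, 1550.3 and 1550.3 CPM in the shNC libraries and 981, 996 and 1003 in the shSTIL libraries, and VIM was the most abundant. VIM fell by 0.68 and FN1 by 1.19 on the log2 scale (limma adjusted p = 8.1e-10 and 8.8e-10). CDH2 and ZEB1 did not pass (limma adjusted p = 0.279 and 0.745). KRT8 fell by 0.70 and KRT7 rose by 0.49 (limma adjusted p = 1.1e-09 and 2.0e-06). Of the 4 leukocyte markers, CD68 and LYZ were measured, CD68 being the most abundant. They summed to 11.9, 11.3 and 11.2 CPM in the shNC libraries and 15, 13.4 and 13.5 in the shSTIL libraries. Neither passed the threshold (limma adjusted p = 0.0322 and 0.973). Of the 4 fibroblast markers only COL1A1 was measured, with 21 to 59 reads in a library, and it fell by 0.96 (limma adjusted p = 0.00196). The part of these marker changes in the results below was not tested. In bulk RNA, fewer cells of a type and less RNA per cell cannot be told apart.

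Of the 37 genes, 32 passed the threshold (limma, Benjamini-Hochberg adjusted p under 0.01), beside 47.1% of all genes measured. The threshold was passed by 61.9% of the 11319 genes that averaged at least 1 log2 CPM, the level that all 37 genes reached. In shSTIL cells 20 of them were higher and 12 lower, beside 23.5% and 23.6% of all genes. The groups were without overlap for 34 of the 37, beside 60.3% of all genes. The arms differed in direction. In the ATF4 arm 13 of 20 genes (65%) rose and 5 (25%) fell, with a median log2 fold change of 0.51. With 1 library left out, those that fell numbered 2 or 3. In the ATF6 and XBP1 arm 3 of 12 genes (25%) rose and 7 (58.3%) fell, with a median of -0.21. This median was -0.43 without XBP1 and HERPUD1, which belong to more than 1 branch. They also rose the most in the arm (0.65 and 0.90), so leaving them out can only lower the median. The median over all genes was 0.01. Taken without sign, the log2 fold change of all genes had a median of 0.30, larger than the -0.21 of the ATF6 and XBP1 arm in size. Taken in each library as the median difference from the mean of the shNC libraries, the ATF4 arm lay at 0.50, 0.51 and 0.51 in shSTIL replicates 1, 2 and 3, and between -0.03 and 0.01 in the shNC libraries. The ATF6 and XBP1 arm lay at -0.18, -0.22 and -0.24 in the shSTIL replicates and between -0.01 and 0.00 in the shNC libraries. No shSTIL library overlapped the shNC libraries in either arm. Because the genes were chosen with results of these data known, no test was made over the lists.

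**Figure D1:**
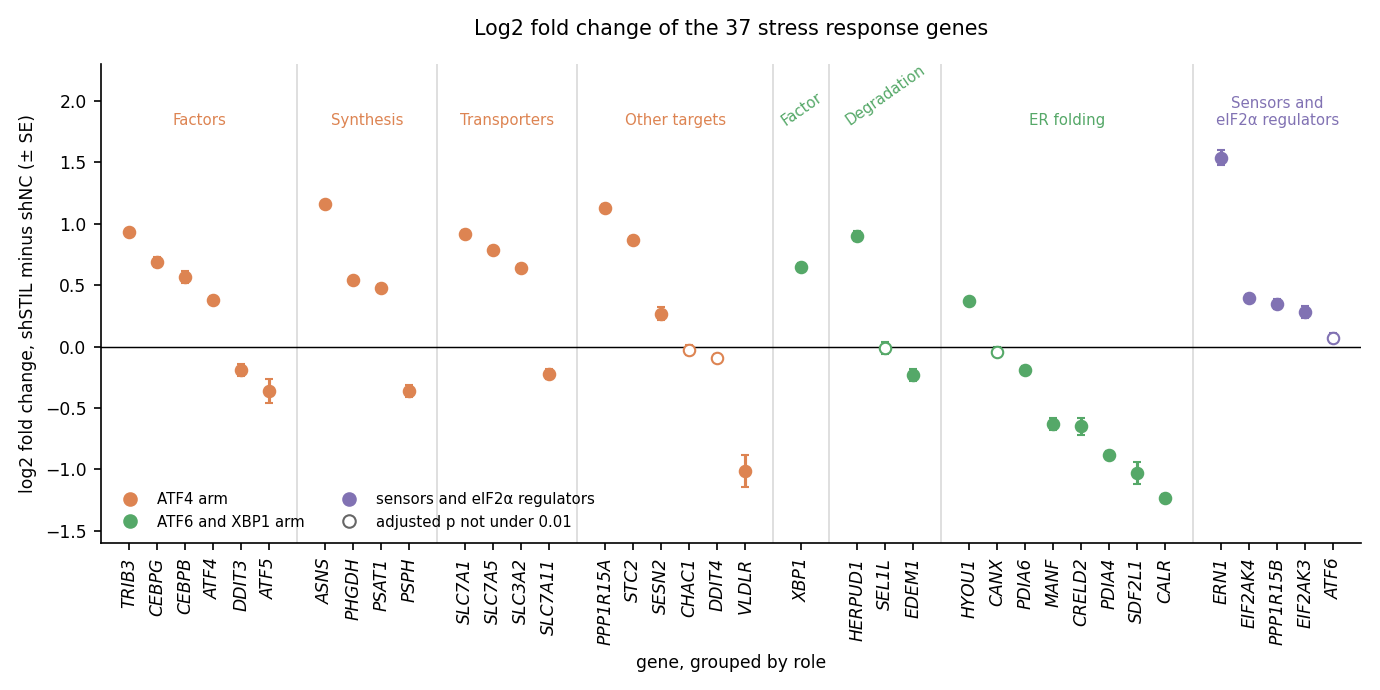
Log2 fold change (shSTIL minus shNC, with standard error, 3 libraries a group) of the 37 genes, grouped by role on the horizontal axis. Open circles mark the 5 genes that did not pass the threshold. Most ATF4 arm genes lie above 0 and most ER folding genes below it, from -1.23 for CALR to 1.16 for ASNS within the arms and 1.54 for ERN1 among the sensors.

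To show the promoter letters that these transcription factors are known for, the 250 bases before each RefSeq start of a gene were searched on both strands. RefSeq promoters (GRCh38.p14) were found for 35 of the 37 genes, and PSPH and SLC7A11 were missing from them. Some genes have more than 1 start, and a start can lie inside the gene as GENCODE 29 draws it, so that the matches of CHAC1, ASNS, CEBPG, PDIA6, CRELD2 and CANX lie within the span of the gene. The C/EBP-ATF element TGATGNAA, a known ATF4 binding sequence, lay before CHAC1, ASNS, CEBPG, PPP1R15B and HERPUD1, and before 3.14% of all 35116 promoters, or 2.62% of the 12621 measured genes with a promoter, counted once a gene. The ER stress element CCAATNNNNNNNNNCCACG, a known binding sequence of ATF6 and XBP1, lay before XBP1, PDIA6, CRELD2, CALR and CANX, and before 0.074% of all promoters (0.143% of measured genes). The ER stress element II, ATTGGNCCACG, lay before HERPUD1, HYOU1 and SDF2L1, and before 0.0513% of all promoters (0.111%). The core of the unfolded protein response element, TGACGTGG, lay before HYOU1 only, where it overlaps the farther of 2 ER stress elements II, and before 0.612% of all promoters (0.943%). A match is a description of letters and not evidence of binding, and no match says nothing about the factor. Of the 5 genes with a C/EBP-ATF element, 4 rose, none fell and CHAC1 did not pass the threshold. Of the 13 ATF4 arm genes that rose, only 2 (ASNS and CEBPG) had this element, and PPP1R15B and HERPUD1 lie outside that arm. Of the 8 genes with an ER stress element of either kind, 3 rose (XBP1, HERPUD1 and HYOU1), 4 fell (PDIA6, SDF2L1, CRELD2 and CALR) and CANX did not pass. These counts are to be read beside 20 higher and 12 lower of all 37 genes, and a link of motif and direction was not tested. The stretches below are shown as examples from genes that rose (ASNS, CEBPG, HERPUD1, XBP1 and HYOU1) and genes that fell (SDF2L1, CRELD2 and CALR), with the motif in capitals, 5′ to 3′ on the strand of the gene. On minus-strand matches the capitals read as the reverse complement. In GRCh38.p14, the stretches lie at chr7:97872458-97872487 (ASNS, minus strand of the genome, shown with shorter flanks because it also lies in an exon of other ASNS transcripts), chr19:33374051-33374098 (CEBPG, plus strand), chr16:56931946-56931993 and chr16:56932005-56932055 (HERPUD1, plus strand), chr22:28800583-28800641 (XBP1, minus strand), chr11:119057360-119057410 (HYOU1, minus strand), chr22:21642094-21642144 (SDF2L1, plus strand), chr22:49918534-49918592 (CRELD2, plus strand) and chr19:12938364-12938422 (CALR, plus strand).
ASNS, C/EBP-ATF element: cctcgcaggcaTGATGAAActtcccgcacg
CEBPG, C/EBP-ATF element: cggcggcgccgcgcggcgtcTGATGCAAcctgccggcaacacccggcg
HERPUD1, C/EBP-ATF element: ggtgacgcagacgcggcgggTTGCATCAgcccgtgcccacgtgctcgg
HERPUD1, ER stress element II: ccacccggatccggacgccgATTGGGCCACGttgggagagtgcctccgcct
XBP1, ER stress element: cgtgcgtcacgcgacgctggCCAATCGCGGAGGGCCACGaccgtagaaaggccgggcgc
HYOU1, ER stress element II: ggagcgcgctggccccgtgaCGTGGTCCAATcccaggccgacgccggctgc
SDF2L1, ER stress element II: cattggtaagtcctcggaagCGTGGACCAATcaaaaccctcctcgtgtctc
CRELD2, ER stress element: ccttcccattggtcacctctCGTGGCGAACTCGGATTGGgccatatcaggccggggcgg
CALR, ER stress element: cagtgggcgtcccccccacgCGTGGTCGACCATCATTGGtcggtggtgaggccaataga

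**Figure D2:**
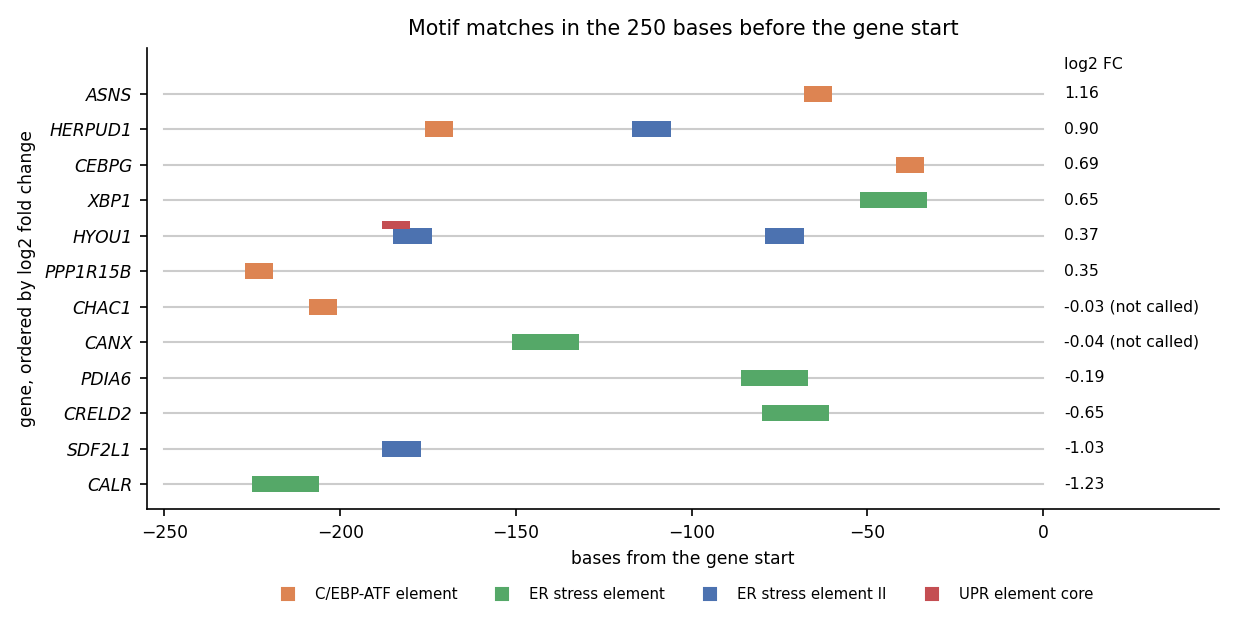
Motif matches (coloured blocks, to scale) in the 250 bases before a RefSeq start of 12 genes, ordered by log2 fold change, which is printed at the right. The horizontal axis gives bases from that start, and a site found from 2 starts of CANX is drawn once. ASNS, with a C/EBP-ATF element, is at the top (1.16), and genes with an ER stress element range from HERPUD1 (0.90) to CALR (-1.23).

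Among the factors of the ATF4 arm, ATF4 itself measured 9.33, 9.31 and 9.38 log2 CPM in the shNC libraries and 9.74, 9.71 and 9.71 in the shSTIL libraries. All shSTIL libraries lay above all shNC libraries, and ATF4 rose by 0.38 (SE 0.03, limma adjusted p = 1.7e-07), a fold of 1.31 that rests on at least 10286 reads in a library. TRIB3, a pseudokinase that is induced by ATF4 and restrains it, went from 8.30, 8.24 and 8.20 to 9.14, 9.19 and 9.18 log2 CPM. The groups were far apart beside a spread of at most 0.05 (SD, n = 3), and the log2 fold change was 0.93 (SE 0.03, limma adjusted p = 7.7e-11). CEBPG, which pairs with ATF4 on C/EBP-ATF elements, rose by 0.69 and CEBPB, another C/EBP partner, by 0.57. DDIT3 (CHOP), the factor associated with cell death under lasting ER stress, moved the other way. Its values of 5.70, 5.55 and 5.62 log2 CPM in the shNC libraries stood above 5.38, 5.48 and 5.45 in the shSTIL libraries. The groups did not overlap but were only 0.07 apart at their nearest libraries, and the log2 fold change was -0.19 (SE 0.05, limma adjusted p = 0.00511). This call was lost without any 1 of the 6 libraries, with adjusted p from 0.0107 to 0.0543. ATF5, a relative of ATF4 under similar translational control, fell by 0.36 (limma adjusted p = 0.0095), on 162 to 225 reads in a library. Its call was kept without shSTIL replicate 3 (adjusted p = 0.00991) and lost without any other library (0.0417 to 0.0988). In all, 11 of 17 alternatives lost the call of ATF5 and 10 that of DDIT3, among them no variance trend, median centring and DESeq2 for both. Strand use in the counting is not stated, and ATF5 shares 626 exon bases with NUP62 and DDIT3 355 with MARS1 on the opposite strand, so the values of both are uncertain. MARS1 rose, with a log2 fold change of 0.55.

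Of the 4 enzymes of asparagine and serine synthesis, 3 rose and 1 fell. All 4 passed the threshold, beside 61.9% of genes that averaged at least 1 log2 CPM. ASNS, asparagine synthetase, had 8.63, 8.65 and 8.66 log2 CPM in the shNC libraries and 9.81, 9.83 and 9.78 in the shSTIL libraries. This was the largest rise in the arm, 1.16 on the log2 scale (SE 0.03, limma adjusted p = 5.2e-12) or 2.23-fold, with no overlap. PHGDH, which commits a glycolytic intermediate to serine synthesis, rose by 0.54, and PSAT1, the next enzyme, by 0.48. PSPH, which releases serine at the last step, did not follow them. It measured 5.05, 5.12 and 5.12 log2 CPM in the shNC libraries and 4.73, 4.72 and 4.75 in the shSTIL libraries. All shSTIL libraries were lower, and PSPH fell by 0.36 (SE 0.05, limma adjusted p = 4.3e-05). PSPH has a pseudogene of similar sequence, with which the authors' counting may share reads.

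The amino acid transporters were split in the same way, and all 4 passed the threshold, beside the same 61.9%. SLC7A5 and SLC3A2, which form the exchanger for large neutral amino acids, rose by 0.79 and 0.64, and SLC7A1, an importer of arginine and lysine, by 0.92 (limma adjusted p = 2.0e-10, 1.3e-09 and 2.9e-11). SLC7A1 measured 8.03, 8.02 and 8.00 log2 CPM in the shNC libraries and 8.96, 8.92 and 8.93 in the shSTIL libraries. The groups did not overlap for any of the 4 transporters, beside 60.3% of all genes. SLC7A11, the cystine importer that also pairs with SLC3A2, had 7.55, 7.68 and 7.62 log2 CPM in the shNC libraries and 7.47, 7.34 and 7.38 in the shSTIL libraries. It fell by 0.22 (SE 0.04, limma adjusted p = 4.5e-04), and the call was lost without shNC replicate 2 or 3 or shSTIL replicate 2 or 3 (adjusted p = 0.0226, 0.0275, 0.0308 and 0.0381) or without a variance trend (0.0217). With a correction for GC content and length, chosen after seeing the data, SLC7A11 was at -0.35 (limma adjusted p = 1.9e-09). SLC7A5 also has pseudogenes of similar sequence, so its level is uncertain to that extent.

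The other targets of the arm showed the widest range. PPP1R15A (GADD34), the inducible subunit that directs phosphatase to eIF2α, measured 7.22, 7.18 and 7.22 log2 CPM in the shNC libraries and 8.35, 8.33 and 8.32 in the shSTIL libraries. It rose by 1.13 (SE 0.03, limma adjusted p = 7.4e-12), or 2.18-fold, with no overlap. STC2, a secreted glycoprotein induced by ER stress, rose by 0.87, and SESN2, a leucine sensor that restrains mTORC1, by 0.27. The call of SESN2 was lost without shNC replicate 2 or 3 or shSTIL replicate 2 or 3 (limma adjusted p = 0.022, 0.0235, 0.027 and 0.0299). CHAC1, which degrades glutathione and is often used as a readout of ATF4 and CHOP, had 6.49, 6.39 and 6.48 log2 CPM in the shNC libraries and 6.46, 6.44 and 6.39 in the shSTIL libraries. These ranges overlapped, and the log2 fold change of -0.03 did not pass the threshold (SE 0.04, limma adjusted p = 0.597) and took the other sign with median centring and with a correction for GC content and length. DDIT4 (REDD1), an inhibitor of mTORC1, had a log2 fold change of -0.09 that narrowly missed it (limma adjusted p = 0.0135) although its groups did not overlap. DDIT4 passed as lower without shNC replicate 2 and with a filter on low values (limma adjusted p = 0.00585 and 0.00799) and with DESeq2 (adjusted p = 0.00512). Its log2 fold change was -0.04 with quantile normalization and -0.05 with median centring (limma adjusted p = 0.173 and 0.156). It was -0.02 (limma adjusted p = 0.59) with the correction for GC content and length, which was chosen after seeing the data. VLDLR, a lipoprotein receptor, measured 2.90, 3.05 and 2.77 log2 CPM in the shNC libraries and 1.81, 1.90 and 1.98 in the shSTIL libraries. The groups were apart, and VLDLR fell by 1.01 (SE 0.13, limma adjusted p = 1.9e-05). It had the fewest reads of the 37 genes, 58 to 133 in a library.

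**Figure D3:**
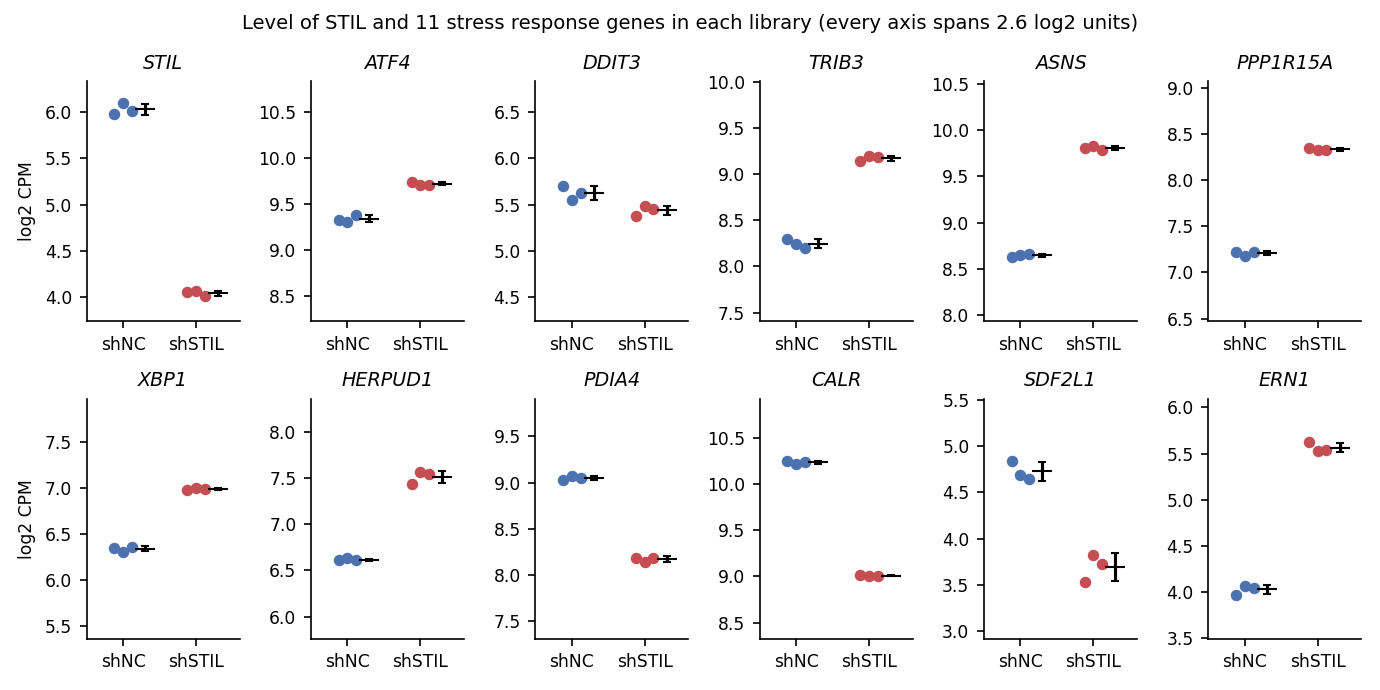
Log2 CPM of STIL and 11 stress response genes in each library (points, 3 shNC and 3 shSTIL) with the mean and SD of each group (black). Every vertical axis spans the same number of log2 units. The groups do not overlap in any panel, and the gap is narrowest for DDIT3.

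In the ATF6 and XBP1 arm, the factor and a degradation gene rose while most folding genes fell. XBP1 measured 6.35, 6.31 and 6.36 log2 CPM in the shNC libraries and 6.98, 7.00 and 6.99 in the shSTIL libraries. The groups did not overlap, and total XBP1 mRNA rose by 0.65 (SE 0.03, limma adjusted p = 2.6e-09). The gene-level values do not separate its spliced and unspliced forms. HERPUD1, which organizes the degradation complex in the ER membrane, went from 6.61, 6.63 and 6.61 to 7.44, 7.56 and 7.54 log2 CPM. Its log2 fold change of 0.90 (SE 0.04, limma adjusted p = 3.2e-10) was the largest rise of the arm. SEL1L, the partner of the degradation ligase, showed overlapping groups. It measured 6.14 to 6.29 log2 CPM in the shNC libraries and 6.13 to 6.26 in the shSTIL libraries. Its log2 fold change of -0.01 (limma adjusted p = 0.942) changed sign under 3 of 17 alternatives. It was -0.11 (limma adjusted p = 0.0275) with a correction for GC content and length, chosen after seeing the data. EDEM1, which delivers misfolded glycoproteins for degradation, fell by 0.23 (limma adjusted p = 0.00102), and its call was lost without any 1 of the 6 libraries (adjusted p from 0.011 to 0.0365).

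Of the 8 ER folding genes 1 rose, 6 fell and 1 did not pass, with a median log2 fold change of -0.64. The share that passed was 87.5%, beside 61.9% of genes that averaged at least 1 log2 CPM. CALR, calreticulin, a calcium-binding lectin chaperone, measured 10.25, 10.22 and 10.24 log2 CPM in the shNC libraries and 9.01 ± 0.01 (SD, n = 3) in the shSTIL libraries, of which the highest was at 9.02. The groups were far apart, and CALR fell by 1.23 (SE 0.03, limma adjusted p = 2.8e-12) to 42.7% of the control level, the largest fall among the 37 genes. CANX, calnexin, its membrane-bound relative, had 9.44, 9.56 and 9.50 log2 CPM in the shNC libraries and 9.48, 9.44 and 9.47 in the shSTIL libraries. Its groups overlapped, and the log2 fold change of -0.04 (SE 0.04, limma adjusted p = 0.414) did not pass. It took the other sign with median centring, and was -0.08 and passed (limma adjusted p = 0.00662) with a correction for GC content and length. SDF2L1, a partner of the chaperone BiP, had 4.84, 4.69 and 4.65 log2 CPM in the shNC libraries and 3.53, 3.82 and 3.73 in the shSTIL libraries. All shSTIL libraries were lower, and it fell by 1.03 (SE 0.09, limma adjusted p = 2.4e-07) on 196 to 457 reads in a library. PDIA4, a protein disulfide isomerase, went from 9.03, 9.07 and 9.05 to 8.19, 8.14 and 8.19 log2 CPM. This fall of 0.88 (limma adjusted p = 5.8e-11) left 54.3% of the control level. CRELD2 and MANF, both secreted ER stress proteins, fell by 0.65 and 0.63, and PDIA6, another disulfide isomerase, by 0.19 (limma adjusted p = 1.7e-06, 3.0e-07 and 7.3e-05). HYOU1, an ER chaperone of the HSP110 type, was the exception. It measured 8.01, 8.00 and 8.01 log2 CPM in the shNC libraries and 8.41, 8.34 and 8.36 in the shSTIL libraries, and rose by 0.37 (SE 0.03, limma adjusted p = 2.2e-07) with no overlap. PDIA6, CRELD2 and CANX share 1033, 168 and 150 exon bases with ATP6V1C2, ALG12 and CBY3 on the opposite strand, so their values are uncertain in the same way as those of DDIT3 and ATF5. In all, 14 of the 37 genes share exon bases with an annotated gene on the opposite strand, and for these 5 that gene was itself measured.

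Among the sensors and eIF2α regulators, 4 of 5 rose and none fell. The share that passed, 80%, is to be read beside 61.9% of genes that averaged at least 1 log2 CPM. ERN1, the kinase and endonuclease IRE1α, measured 3.97, 4.07 and 4.05 log2 CPM in the shNC libraries and 5.62, 5.53 and 5.54 in the shSTIL libraries. It rose 2.9-fold, by 1.54 on the log2 scale (SE 0.06, limma adjusted p = 1.1e-10), the largest rise among the 37 genes. EIF2AK4 (GCN2), the eIF2α kinase of amino acid shortage, rose by 0.40, and EIF2AK3 (PERK), the kinase of the ER, by 0.28 (limma adjusted p = 2.4e-07 and 5.2e-04). PPP1R15B, the constitutive counterpart of PPP1R15A, rose by 0.35. ATF6 had 6.25, 6.33 and 6.29 log2 CPM in the shNC libraries and 6.37, 6.36 and 6.34 in the shSTIL libraries. The groups did not overlap, yet the log2 fold change of 0.07 did not pass the threshold (SE 0.04, limma adjusted p = 0.146), and it was -0.02 after a correction for GC content and length that was chosen after seeing the data.

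Other genes of the same pathways were read as lists. All 12 cytosolic aminoacyl-tRNA synthetases, which load tRNAs with amino acids, had a positive log2 fold change, 10 of them (83.3%) passed the threshold, beside 61.9% of genes that averaged at least 1 log2 CPM, none fell, and the median was 0.53. SARS1 rose by 0.89 and NARS1 by 0.81, while AARS1 at 0.04 and WARS1 at 0.09 did not pass. Of 21 other ATF4 targets 14 rose, 3 fell and 4 did not pass (81% passed), with a median of 0.49. SLC6A9, a glycine transporter, rose by 1.35 and NUPR1, a small stress-induced nuclear protein, by 1.39, the latter from a low level of 0.00 to 0.75 log2 CPM in the shNC libraries. MTHFD2, a mitochondrial folate enzyme, fell by 0.98 and CTH, which makes cysteine from cystathionine, by 0.94 (limma adjusted p = 8.6e-11 and 2.4e-06).

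Of 28 other ER folding and degradation genes 10 rose, 8 fell and 10 did not pass, with a median log2 fold change of -0.02. The share that passed was 64.3%, near the 61.9% above. DNAJB9 (ERdj4), a BiP cochaperone, had 3.48, 3.64 and 3.54 log2 CPM in the shNC libraries and 5.15, 5.11 and 5.14 in the shSTIL libraries. It rose by 1.58 (SE 0.07, limma adjusted p = 3.9e-10), and EDEM3, a mannosidase of ER-associated degradation, rose by 1.02. UGGT1, which marks unfolded glycoproteins for calreticulin and calnexin, fell by 0.69, and PDIA3, the disulfide isomerase that works with both lectins, by 0.62 (limma adjusted p = 9.2e-09 and 3.5e-09). HSPA5 (BiP), the main ER chaperone, is named although it lies outside the rule for naming genes, and was chosen after its values were seen. It measured 9.62, 9.65 and 9.68 log2 CPM in the shNC libraries and 9.60, 9.54 and 9.56 in the shSTIL libraries, and its log2 fold change of -0.08 did not pass the threshold (SE 0.03, limma adjusted p = 0.0406).

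Of 19 genes of the eIF2 pathway 8 rose, 4 fell and 7 did not pass, with a median of 0.10. The share that passed, 63.2%, was again near 61.9%. EIF2A, which is not the gene of eIF2α, rose by 0.51, and NCK1, an adaptor that binds PERK, by 0.49. In contrast, PPP1CA, a catalytic subunit used by PPP1R15A and PPP1R15B, fell by 0.98 and the kinase EIF2AK1 (HRI) by 0.21. Of 12 genes of ATF6 and stress sensor processing 6 rose, 3 fell and 3 did not pass (75% passed), with a median of 0.20, and ERN2 among the last had at most 1 read in a library. MBTPS2, the site-2 protease that releases ATF6, fell by 0.77 and ATF6B by 0.34, and TNFRSF10B (DR5), a death receptor induced by CHOP, rose by 0.81 and TRAF2, an adaptor of IRE1α, by 0.56.

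Some members are also targets of other pathways, and the genes of those pathways were counted beside them. DDIT4 is also a hypoxia gene, and of 12 hypoxia genes 1 rose, 10 fell and 1 did not pass (91.7% passed), with a median of -0.85. LDHA fell by 2.25, BNIP3 by 1.61, and ADM rose by 0.62. SLC7A11 is also a target of NRF2, the factor of the oxidative stress response. Of 12 NRF2 targets, SLC7A11 included, 1 rose and 11 fell (100% passed), with a median of -0.39. FTL fell by 1.04, and ABCC3 rose by 1.16. SESN2 and DDIT4 are also p53 targets, and of 12 other p53 targets 4 rose, 5 fell and 3 did not pass, with a median of -0.10. Of these p53 targets 75% passed. The shares of the hypoxia, NRF2 and p53 lists are to be read beside the 61.9% of genes that averaged at least 1 log2 CPM. Their falls are to be read beside 23.6% of all genes. GDF15, which is among the other ATF4 targets too, rose by 0.53 and ZMAT3 by 0.42, whereas FDXR fell by 1.25 and MDM2 by 0.93. The part of these pathways in the values of DDIT4, SLC7A11 and SESN2 was not tested.

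**Figure D4:**
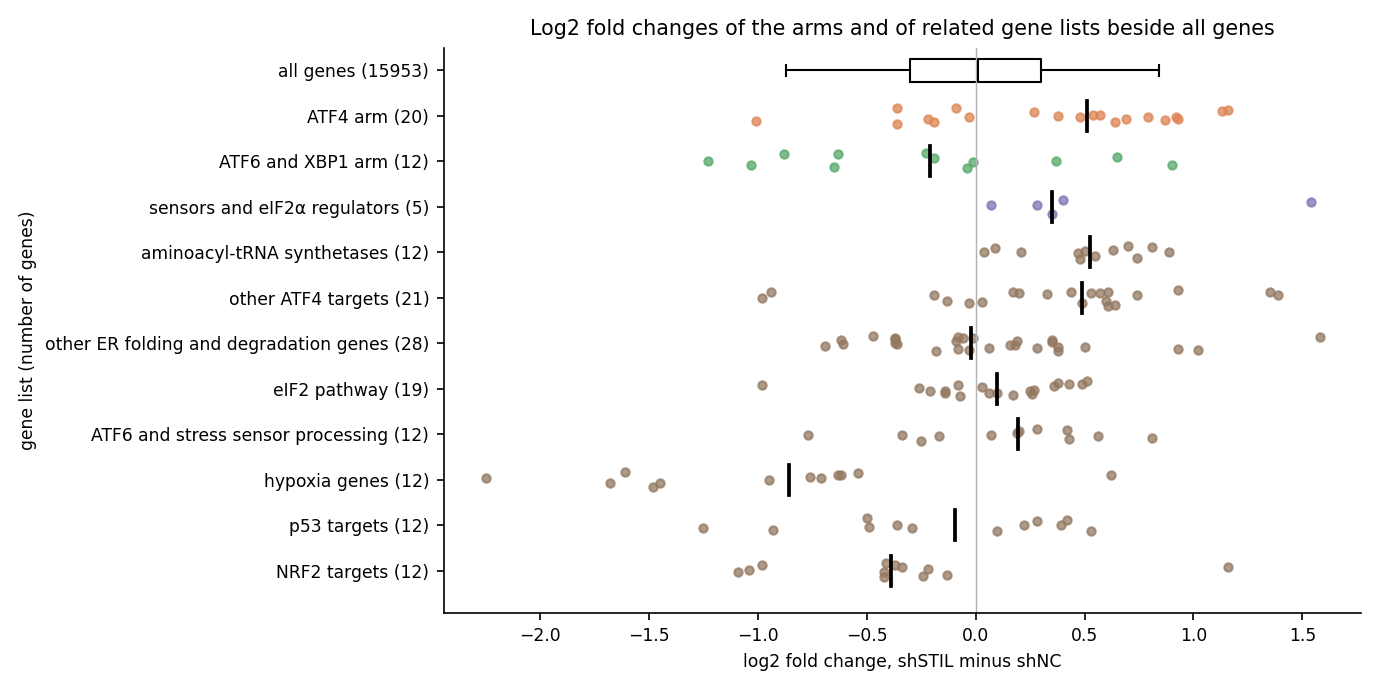
Log2 fold changes (shSTIL minus shNC, horizontal axis) of single genes (points) in the arms, the sensors and 8 related lists, with the median of each list (black bar). The box at the top gives all 15953 genes (quartiles, whiskers to the 5th and 95th percentiles). The medians of the ATF4 arm (0.51), the tRNA synthetases (0.53) and the other ATF4 targets (0.49) lie to the right of 0 and that of the ATF6 and XBP1 arm (-0.21) to the left, while the other ER genes (-0.02) are centred near 0.

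The count of ATF4 arm genes that fell changed when single libraries were left out. It was 5 with all libraries and 2 or 3 without any 1 of the 6 libraries, namely 3 without shNC replicate 1 or 2 or shSTIL replicate 1 or 3, and 2 without shNC replicate 3 or shSTIL replicate 2. With 1 library fewer, calls over all genes also went from 7509 to between 4900 and 5638. The median of the ATF6 and XBP1 arm was -0.43 when XBP1 and HERPUD1, which belong to more than 1 branch, were left out. As these genes rose the most in the arm, leaving them out can only lower the median.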

How the data were processed

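Per the paper's methods and the labels, the authors sequenced total RNA (BGISEQ-500), filtered reads with SOAPnuke, mapped them with Bowtie2 (hg38 in the submitters' notes), estimated counts with RSEM, which shares reads between similar transcripts, and computed CPM with edgeR. Versions and strand use are not given in the sources used here. The deposited log2 CPM of 15953 genes (6 libraries) were tested, and the deposited estimated counts (4 libraries) served as a check. Reads worked back from the log2 CPM differed from those counts by at most 0.000492, and 87.5% to 87.8% were whole within 0.01. The library sizes in the deposited values carry a scaling factor, which worked back to 0.981 to 0.992 in shNC and 1.01 to 1.02 in shSTIL. The prior count of 2 in the values understates fold changes of genes with few reads. Groups were compared with limma 3.58.1 (lmFit, then eBayes with trend) under R 4.3.3 over all genes, unfiltered, with Benjamini-Hochberg adjustment and a threshold of 0.01. Rises and falls are on the deposited log2 scale. The reads, rounded, were also tested with edgeR 4.0.16 (quasi-likelihood, 7828 genes called) and DESeq2 1.42.0 (6742), beside 7509 with limma. Other alternatives were no variance trend, quantile normalization, median centring, a filter at an average of 1 log2 CPM, prior counts of 0.5 and 5, other thresholds, a replicate block, leaving out each library, and a GC content and length correction over 15506 genes with a coding transcript. Named genes are the 37 members, STIL, markers, and per list up to 2 called genes with the largest rise and 2 with the largest fall that averaged at least 1 log2 CPM without overlap between groups. AARS1, WARS1, HSPA5, ERN2 and the genes on opposite strands are exceptions, and a gene that the rule names is not reported here. The members and lists were chosen with earlier results of these data known.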

Additional observations from a re-analysis of the deposited data

How the results depend on the processing

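Of the 32 genes that passed the threshold, 27 kept direction and call under the 17 alternatives applied to single genes, which include a looser threshold of 0.05 that cannot lose a call and do not include a minimum fold change, and ATF5, DDIT3, EDEM1, SESN2 and SLC7A11 lost the call under 11, 10, 7, 5 and 5 of them, no variance trend among these for each. None of the 32 changed sign. Replicate numbers did not pair the libraries (correlation of deviations -0.121, -0.055 and -0.107). With a replicate block, 20 genes were higher and 11 lower, and DDIT3 lost its call (adjusted p = 0.0186). Without any 1 library, the genes called higher numbered 19 to 20 and those called lower 8 to 9. In the ATF4 arm these ranges were 12 to 13 and 2 to 3, and in the ATF6 and XBP1 arm 3 to 3 and 6 to 6. The arm medians ranged from 0.50 to 0.52 and from -0.23 to -0.18. With an absolute log2 fold change above 1, 3 genes were higher and 3 lower, of which 2 and 1 were in the ATF4 arm and 0 and 2 in the ATF6 and XBP1 arm, fewer because of the stricter threshold. The ATF4 arm genes called lower were 2 without a variance trend and 3 with median centring. The mean of the library medians was -0.043 log2 CPM in shSTIL relative to shNC, a difference that median centring removes. The ATF4 arm median was 0.56 with median centring and 0.54 when trends on GC content and length were removed, an alternative chosen after seeing the data. The ATF6 and XBP1 arm median was -0.18 with quantile normalization, -0.17 with median centring and -0.25 without those trends. It was -0.43 without the genes of more than 1 branch, XBP1 and HERPUD1, which rose the most in the arm. Among genes that did not pass, signs changed for CHAC1 (0.02 with median centring and 0.09 without those trends), SEL1L (0.04 with median centring, and from -0.04 to 0.04 with 1 library left out, 0.04 without shNC replicate 2 and 0.03 without shSTIL replicate 3), CANX (0.006 with median centring, whereas it passed at -0.08 without those trends) and ATF6 (-0.02 without those trends). Without those trends SEL1L was at -0.11, with no change of sign. DDIT4 passed without shNC replicate 2, with the filter on low values, with DESeq2 and at a threshold of 0.05. The cause was not tested. VLDLR had the fewest reads of the 37 genes, 58 to 133 in a library.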
